A study of Homo sapiens with 36 samples.

Results

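The first day of cardiac differentiation of wild-type H1 cells, an established human embryonic stem cell line, was described by setting the 3 libraries labelled day 1 against the 3 labelled day 0 across all genes. These 6 libraries were chosen by their genotype and day labels from the 36 of the series, which cover wild-type and PERK KO H1 cells at days 0, 1, 2, 3, 5 and 10 with 3 libraries for each genotype and day. Day 1 wild-type cells had left E8, a maintenance medium that contains FGF2, TGF-beta and insulin, for a DMEM/F-12 based cardiac medium with lipids, transferrin, ascorbic acid and selenite, to which 5 µM CHIR99021 was added. Heparin was added from day 1, and whether before or after these cells were taken is not stated. CHIR99021 inhibits the kinase GSK3 and so raises WNT/beta-catenin signaling. Day 0 wild-type cells were taken from E8 before the switch. The inhibitor, the loss of the E8 factors and a further day of culture differ together between the groups and cannot be told apart. PERK KO cells, used below for comparison, went through the same switch. PERK is the endoplasmic reticulum stress kinase encoded by EIF2AK3, and how it was targeted and in how many clones was not stated. The sources do not say that replicates are separate cultures, so p-values measure only a spread between libraries. That spread was estimated over all 36 libraries and not over the 6 compared ones alone. In bulk RNA, fewer cells of a type and less RNA per cell cannot be told apart.

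When WNT signals are absent, GSK3 sits in a complex with AXIN and APC that marks beta-catenin for destruction. When GSK3 is blocked, beta-catenin enters the nucleus and binds TCF and LEF factors, which then turn on WNT target genes, including several inhibitors of the pathway itself. In the mammalian embryo WNT and NODAL together start the primitive streak, the site where epiblast cells lose their epithelial form and become mesoderm and endoderm. Human embryonic stem cells resemble the epiblast, and WNT activation is the usual first step toward heart cells in culture.

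The promoters of MIXL1, SP5, DKK1 and CDX2 are shown first, because these genes were among those with the lowest p in the streak and WNT target lists and hold a TCF/LEF match. Each window runs from 250 bases before to 50 bases after the RefSeq gene start (GRCh38.p14), printed 5′ to 3′ on the gene's strand. Capitals mark the letters CTTTGAA or CTTTGAT, read on either strand. The windows are chr1:226223414-226223713 (plus strand), chr2:170715087-170715386 (plus), chr10:52314031-52314330 (plus) and chr13:27969266-27969565 (minus).
MIXL1: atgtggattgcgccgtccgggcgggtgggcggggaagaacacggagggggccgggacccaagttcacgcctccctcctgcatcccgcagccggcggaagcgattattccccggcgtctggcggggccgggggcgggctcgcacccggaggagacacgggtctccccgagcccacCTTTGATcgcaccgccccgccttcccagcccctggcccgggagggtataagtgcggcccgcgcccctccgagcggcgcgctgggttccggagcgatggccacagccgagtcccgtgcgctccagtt
SP5: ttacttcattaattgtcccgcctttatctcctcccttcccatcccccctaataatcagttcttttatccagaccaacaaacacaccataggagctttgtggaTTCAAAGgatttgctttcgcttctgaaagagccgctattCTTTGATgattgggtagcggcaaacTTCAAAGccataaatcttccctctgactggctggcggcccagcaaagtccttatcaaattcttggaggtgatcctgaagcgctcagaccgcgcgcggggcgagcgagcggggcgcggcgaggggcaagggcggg
DKK1: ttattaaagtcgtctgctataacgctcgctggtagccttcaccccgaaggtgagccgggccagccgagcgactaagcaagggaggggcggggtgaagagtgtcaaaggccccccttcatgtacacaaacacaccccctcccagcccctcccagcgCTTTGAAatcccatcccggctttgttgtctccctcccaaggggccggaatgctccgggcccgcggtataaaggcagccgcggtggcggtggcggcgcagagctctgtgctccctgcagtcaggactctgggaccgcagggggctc
CDX2: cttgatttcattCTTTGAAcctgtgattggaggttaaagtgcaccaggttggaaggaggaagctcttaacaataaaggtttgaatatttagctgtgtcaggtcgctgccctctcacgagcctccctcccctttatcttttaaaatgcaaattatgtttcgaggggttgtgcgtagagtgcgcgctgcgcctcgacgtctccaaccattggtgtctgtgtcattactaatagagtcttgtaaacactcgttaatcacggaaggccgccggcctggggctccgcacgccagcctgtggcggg
MIXL1 has its match 76 bases before the gene start, DKK1 95 and CDX2 238. SP5 has 3, which begin 148, 109 and 84 bases before the start. The same letters occur in 2409 of 35116 RefSeq windows of this length (6.86%). They occur in 4 of the 11 higher streak genes and 2 of the 9 higher WNT target genes that have a window, with SP5 in both lists. A match is a string of letters and not a measured binding site.

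Day 1 libraries held 18.5 to 25.9 M counted reads and day 0 libraries 14.1 to 15.1 M. The mean effective transcript length of the counted reads was 2505 to 2549 nt at day 1 and 2342 to 2385 nt at day 0. The share of reads from the mitochondrial genome was 5.28% to 5.55% at day 1 and 5.20% to 8.54% at day 0, with day 0 replicate 1 at the low end. That library stood somewhat apart, with a chi-square per degree of freedom of 19.3 and 25.8 against the other pair of day 0 libraries, which differed from each other by 3.78. Length moved a little with the change: when genes were cut into 3 sets by transcript length, the median log2 fold change was 0.09 in the longest set and -0.08 in the shortest. The part of length in single results was not tested beyond the offsets given under the processing.

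EdgeR's quasi-likelihood test, fitted over all 36 libraries, called 8819 of 19772 tested genes at a Benjamini-Hochberg adjusted p under 0.05, which is 44.6%. Of these, 4137 were higher at day 1 (20.9% of genes tested) and 4682 lower (23.7%). The median log2 fold change over all genes was 0.00, and calls were common in both directions. At least 2-fold changes numbered 4743 genes (24.0%), 1888 of them higher and 2855 lower. Moderate decreases outnumbered moderate increases, and the order turned round at the extremes: 304 genes were at least 16-fold higher and 159 at least 16-fold lower, and at 64-fold the counts were 136 and 28. These counts use fitted folds without a minimum level. Genes with 0 counts at 1 of the days entered at fitted values, which can exceed the fold that their counts bound. Day 0 libraries were also the shallower ones, and the part of this in the extremes was not tested. The libraries of the 2 days did not overlap for 12720 genes (64.3%).

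**Figure D1:**
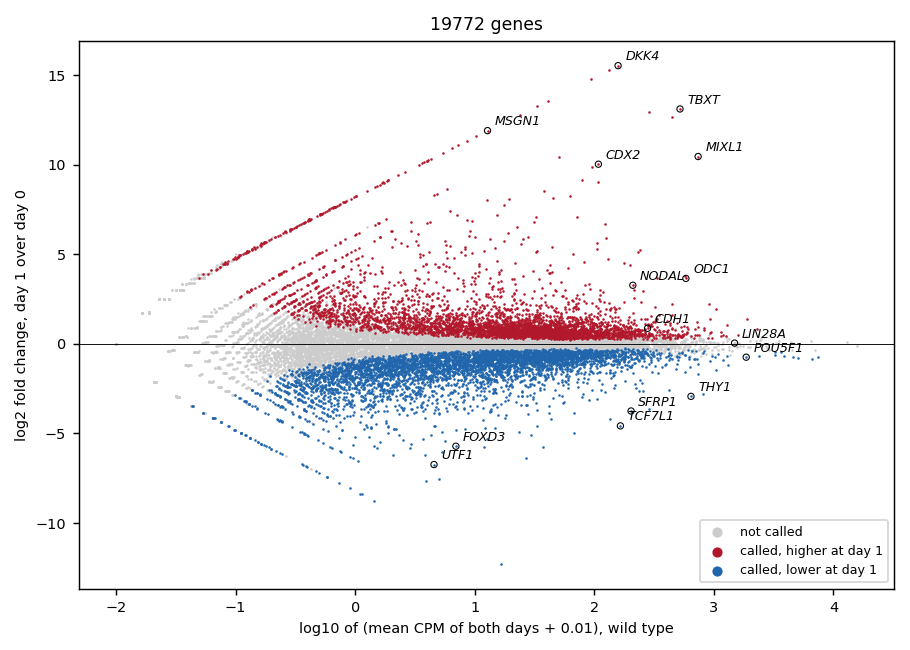
Log2 fold change of each tested gene (wild type, day 1 over day 0) against log10 of its mean CPM over both days plus 0.01, with called genes in red (higher) and blue (lower), the rest in grey and selected genes named. The far upper part is filled by genes with almost no reads at day 0, including DKK4, TBXT and MSGN1, which are drawn at fitted values, and fewer genes lie as far below the line of no change.

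A set of 20 genes had 0 counts in all day 0 libraries and at least 5 CPM (counts per 1e6 reads after TMM scaling) at day 1, and 13 of them code for proteins. DKK4, a secreted WNT inhibitor, had 330, 284 and 334 CPM at day 1, at least 4748-fold above the floor of 3 counts over the day 0 group. The homeobox factor EVX1 reached 264 ± 6.06 CPM (SD, n = 3), CDX1 186 ± 34.5 CPM and the zinc finger factor GATA6 81.3 ± 15.8 CPM. Their least folds were 3961, 2847 and 1245. At lower levels the set held MSGN1, ZEB2, TTC29, HOXB3, HOXB1, MNX1, FGF10 and URAD, at 25.6 down to 5.23 CPM. A single gene did the opposite: THSD8 had 0 counts at day 1 and 32.9 CPM at day 0, and it shares 63.5% of its exon bases with RNASEH2A, so its reads are uncertain.

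Primitive streak and mesendoderm factors were nearly all raised. Of 18 tested members 15 were higher, none was lower and 3 were not called, with a median log2 fold change of 8.90 against 0.00 over all genes. With the 4 members that had 0 counts at 1 of the days set at their bound, the median was 8.19. MIXL1, a homeobox factor of the streak (chr1:226223618-226227054, GRCh38), had 1515, 1432 and 1480 CPM at day 1, against 0.988, 1.23 and 0.911 CPM at day 0. Its log2 fold change was 10.45 ± 0.25 (SE), and the groups lay far apart with narrow spread in each. TBXT, the T-box factor brachyury that defines the streak (chr6:166157656-166168700), had 1061, 1030 and 1034 CPM at day 1, against 0.329, 0 and 0 CPM at day 0. Only 1 of the 3 day 0 libraries held any TBXT read. SP5, a zinc finger factor directly induced by WNT (chr2:170715351-170718078), had 597, 579 and 551 CPM at day 1, against 0, 0.194 and 0 CPM at day 0, a ratio of counts of 8650 (95% counting interval 2960 to 41950).

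Further streak genes followed at lower levels. EOMES, a T-box factor of mesendoderm, averaged 157 ± 11.6 CPM at day 1 and 0.269 ± 0.0769 CPM at day 0 (SD, n = 3), a log2 fold change of 9.16 ± 0.27. CDX2, a caudal homeobox factor of the posterior embryo, had 222, 228 and 198 CPM at day 1, against 0.395, 0 and 0.21 CPM at day 0. GSC, the organizer factor goosecoid, averaged 34.9 CPM at day 1 against 0.151 CPM at day 0 (log2 fold change 7.75 ± 0.47), and FOXA2, a pioneer factor of node and endoderm, 11.6 CPM at day 1 against 0.0234 CPM at day 0. The ratio for FOXA2 was 520.5 (95% counting interval 93.1 to 20580), since its day 0 libraries held a single read. SP8, NKX1-2, LHX1 and SNAI1, the repressor of E-cadherin, also rose, by 5.42, 3.37, 2.63 and 1.10 on the log2 scale, and NKX1-2 shares 36.4% of its exon bases with another gene. SOX17, which marks committed endoderm, stayed at 0.0178 against 0 CPM (day 1, day 0), and HHEX at 1.26 against 0.783 CPM, neither called. Set per transcript length, MIXL1 led the day 1 levels with 1527 TPM, followed by TBXT with 850.4, SP5 with 616 and EVX1 with 133.

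**Figure D2:**
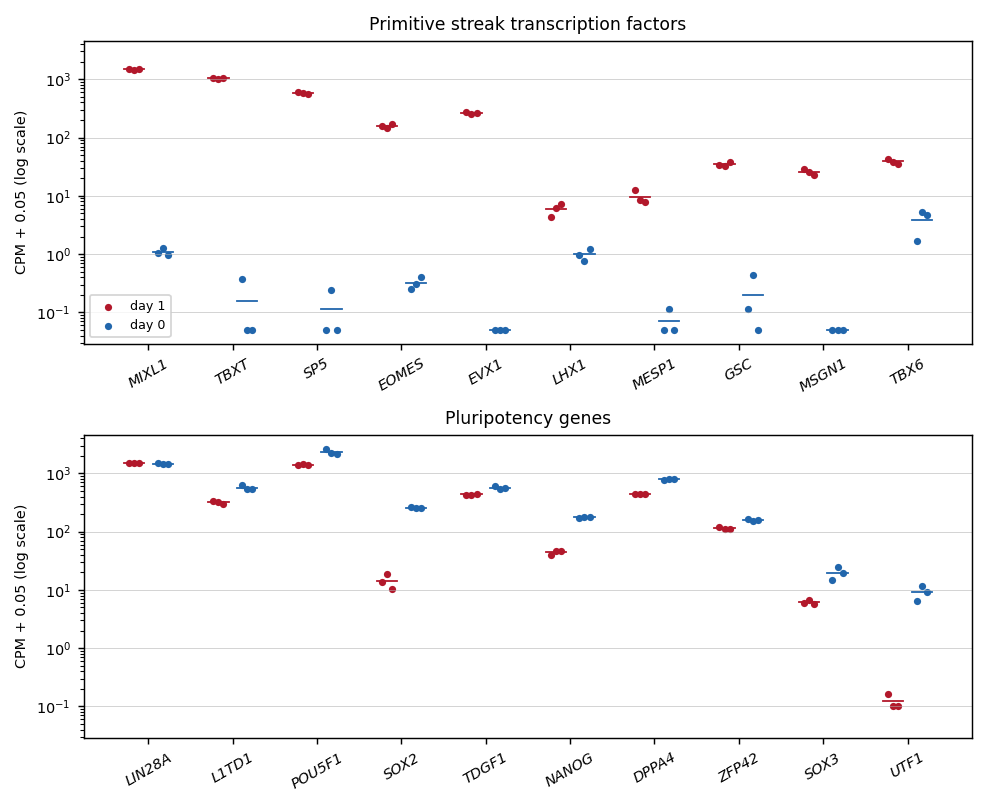
Normalised counts (CPM plus 0.05, log axis) of 10 mesendoderm and 10 pluripotency genes in each wild-type library, day 1 left and day 0 right of each pair, one point per library and a line at the mean. Streak genes such as MIXL1 and TBXT are far apart between the days, LIN28A overlaps, and SOX2 and NANOG are lower in all 3 day 1 libraries than in any day 0 library.

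Posterior patterning genes were part of the same first day. Of 14 tested HOX and CDX genes 12 were higher, none was lower, and HOXB5 and HOXB6 were not called. The median log2 fold change was 8.51 by fitted values and 5.21 with the 12 members at 0 counts at day 0 set at their bound. HOXB3 had 13.7, 10.4 and 8.26 CPM at day 1 and no counts at day 0, at least 166-fold, and HOXB1 averaged 8.11 CPM at day 1 against 0 counts at day 0. HOXB4, HOXA3 and HOXB2 reached 3.41, 3.01 and 1.93 CPM, and HOXA2 and HOXD1 0.990 CPM each, all against 0 counts at day 0. HOXD1 shares 58.1% of its exon bases with other genes, HAGLR among them, so its reads are uncertain. HOXB9 was counted at 0.654 CPM, while CDX4 averaged 3.81 CPM at day 1 against 0.71 CPM at day 0. EVX1-AS, antisense to EVX1, reached 7.57 CPM at day 1 with 0 counts at day 0. It shares 39.1% of its exon bases with EVX1, and the sources used here do not say that strand was kept, so its reads are uncertain. Genes of retinoic acid handling split 4 higher and 6 lower of 16 (62.5% called, against 44.6% of all genes tested). CYP26A1, which degrades retinoic acid, averaged 30 CPM at day 1 against 1.88 CPM at day 0, and the binding protein gene CRABP2 255 CPM at day 1 against 64.6 CPM at day 0, whereas its relative CRABP1 averaged 42.6 CPM at day 1 against 110 CPM at day 0, with 47.2% of its exon bases shared with another gene. The reductase gene DHRS3 fell by 2.44 on the log2 scale.

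WNT ligand genes moved both ways. Of 15 tested, 7 were higher and 4 lower (73.33% called, against 44.6% of all genes tested). Their median log2 fold change was 1.74 (1.64 with members at 0 counts at their bound). WNT5B, a ligand of the beta-catenin independent branch, had 263, 245 and 226 CPM at day 1, against 1.71, 2.65 and 2.87 CPM at day 0. WNT5A averaged 41.5 CPM at day 1 against 1.78 CPM at day 0 (log2 fold change 4.54 ± 0.32). WNT3, which the mouse embryo needs to form a streak, averaged 61.6 CPM at day 1 against 10.6 CPM at day 0, and WNT3A 15.9 CPM at day 1 against 0.519 CPM at day 0. WNT8A was at 4.57 CPM at day 1 with no day 0 counts, a rise of at least 70.4-fold, and WNT10B averaged 1.16 CPM at day 1 against 0.113 CPM at day 0. The lower ones were little counted at both days, WNT2B at 0.966 CPM at day 1 against 3.56 CPM at day 0 and WNT8B at 0.132 CPM at day 1 against 1.47 CPM at day 0.

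Receptors moved both ways, with 8 of 19 higher and 7 lower (78.95% called, against 44.6% of all genes tested) and a median of 0.23. FZD10 rose to 63.5 CPM at day 1, against 1.84 CPM at day 0 (log2 fold change 5.11 ± 0.33). FZD7 had 69.2, 67 and 72.6 CPM at day 1, against 376, 383 and 378 CPM at day 0, and FZD5 fell by 3.11 on the log2 scale, to 18.7 CPM at day 1 against 161 CPM at day 0. ROR2, a receptor of WNT5A, averaged 93.8 CPM at day 1 against 14.5 CPM at day 0, and PTK7, of the planar polarity branch, 666 CPM at day 1 against 219 CPM at day 0, whereas ROR1 fell to 32.1 CPM, against 71.1 CPM at day 0. LGR5, a receptor for R-spondins and a WNT target, averaged 7.14 CPM at day 1 against 0.22 CPM at day 0. The co-receptor gene LRP6 was not called, at 89.3 CPM at day 1 against 75.9 CPM at day 0.

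Feedback targets and nuclear factors of the pathway were called in 23 of 25 cases, 14 higher and 9 lower, with a median of 1.71. AXIN2, the inducible scaffold of the destruction complex, had 455, 453 and 443 CPM at day 1, against 10.4, 13.8 and 13.8 CPM at day 0. The groups were far apart and each varied little. NKD1, which binds Dishevelled, averaged 469.6 CPM at day 1 against 12.3 CPM at day 0. NOTUM, which removes the lipid from WNT proteins, averaged 23.1 CPM at day 1 against 0.622 CPM at day 0, and RNF43, a ligase that clears Frizzled, 29 CPM at day 1 against 3.44 CPM at day 0, although 73.9% of the RNF43 exon bases are shared with other genes. DKK1, a secreted inhibitor that binds LRP5 and LRP6, had 966, 856 and 854 CPM at day 1, against 0.198, 0 and 0.21 CPM at day 0. Its log2 fold change was 12.63 ± 0.51. APCDD1 and TNFRSF19 rose by 5.02 and 7.21 on the log2 scale. WLS, which carries WNT proteins to the surface, averaged 248 CPM at day 1 against 4.08 CPM at day 0.

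The nuclear factors moved in opposite directions. LEF1 activates targets together with beta-catenin and averaged 89.2 CPM at day 1 against 0.319 CPM at day 0. TCF7, of the same kind, averaged 84.1 CPM at day 1 against 10.7 CPM at day 0. TCF7L1, which represses targets when beta-catenin is absent, had 10.9, 14.1 and 15 CPM at day 1, against 277, 328 and 346 CPM at day 0, a log2 fold change of -4.58 ± 0.16. TCF7L2 fell by 2.83 on the log2 scale. Secreted inhibitors of the SFRP family were lower. SFRP1 averaged 28.2 CPM at day 1 against 377 CPM at day 0, and SFRP2 285 CPM at day 1 against 852 CPM at day 0. Among widely cited targets CCND1 rose, 322 CPM at day 1 against 98.4 CPM at day 0, and MYC fell, 31.5 CPM at day 1 against 142 CPM at day 0. Per transcript length, LEF1, TCF7, TCF7L1 and TCF7L2 stood at 72.9, 37.9, 6.58 and 6.5 TPM at day 1.

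Genes of NODAL, activin and TGF-beta signaling split evenly, 8 higher and 8 lower of 28, with a median of -0.03. The share called was 57.14%, against 44.6% of all genes tested. NODAL, the ligand that drives mesendoderm, had 382, 386 and 373 CPM at day 1, against 44.2, 38.6 and 35.5 CPM at day 0. The nuclear partner FOXH1 averaged 357 CPM at day 1 against 138 CPM at day 0. The activin inhibitor FST averaged 208 CPM at day 1 against 4.17 CPM at day 0. The feedback inhibitors LEFTY1 and LEFTY2 moved the other way from NODAL: LEFTY1 had 17.9, 20.2 and 21 CPM at day 1, against 114, 78.3 and 70.8 CPM at day 0, and LEFTY2 averaged 3.66 CPM at day 1 against 24.9 CPM at day 0. SMAD7, an inhibitor induced by TGF-beta, was lower, at 28.7 CPM at day 1 against 60.7 CPM at day 0. TDGF1, the NODAL co-receptor, was not called at 433 CPM at day 1 against 569 CPM at day 0, and neither were the signal carriers SMAD2 and SMAD3. NODAL shares 41.2% of its exon bases with another gene, LEFTY1 46.6% and FOXH1 31.6%, so these reads are uncertain.

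The BMP list held 10 higher and 2 lower of 23 (52.17% called, against 44.6% of all genes tested), with a median of 0.61. BMP2 had 146, 141 and 137 CPM at day 1, against 1.25, 1.17 and 0.701 CPM at day 0. BMP4, a ligand of the same branch, was at 3.71 CPM at day 1 against 3.17 CPM at day 0 and not called, with overlapping groups. Among BMP targets, MSX1 averaged 64.2 CPM at day 1 against 0.467 CPM at day 0. MSX2 averaged 11 CPM at day 1 against 0.528 CPM at day 0, and ID2 83.8 CPM at day 1 against 10.3 CPM at day 0. ID1 and ID3, the usual early targets of BMP, were not called (110.1 against 82.3 CPM and 164 against 138 CPM, day 1 and day 0). BMP7 was lower, at 20.5 CPM at day 1 against 33.5 CPM at day 0.

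FGF genes moved both ways. Of 29 tested members 10 were higher and 11 lower (72.41% called, against 44.6% of all genes tested). FGF17 had 125, 96.1 and 84.9 CPM at day 1, against 0, 0 and 0.21 CPM at day 0, a count ratio of 1563 (95% counting interval 535 to 7581). Several more ligands were raised: FGF4 averaged 54.9 CPM at day 1 against 0.888 CPM at day 0. FGF8 averaged 29.5 CPM at day 1 against 1.21 CPM at day 0, and FGF19 90.5 CPM at day 1 against 23.1 CPM at day 0. FGF10 reached 7.88 CPM with 0 counts at day 0. FGFR2 had 5.75, 5.24 and 5.22 CPM at day 1, against 78.6, 74.4 and 79.5 CPM at day 0, and FGFR1, FGFR3 and FGFR4 were lower too, by log2 fold changes of -0.89, -1.71 and -0.97. DUSP6, an ERK phosphatase induced by ERK activity, had 46.8, 38.6 and 43.6 CPM at day 1, against 455, 579 and 559 CPM at day 0. It shares 40.5% of its exon bases with AC024909.2, so its reads are uncertain. The feedback inhibitors SPRY1 and SPRY4 fell by 2.72 and 2.26, and the ERK-dependent factor ETV5 by 1.31, on the log2 scale. SPRY2, DUSP4 and SPRED2 rose by 0.45, 0.83 and 0.59, and FGF2 was not called.

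Of 18 NOTCH pathway genes 9 were lower and 2 higher, with a median of -0.65. The share called was 61.11%, against 44.6% of all genes tested. The ligand gene JAG1, the fringe genes LFNG, MFNG and RFNG, and NOTCH1 fell, NOTCH1 to 131 CPM at day 1, against 222 CPM at day 0. The target HES1 averaged 6.07 CPM at day 1 against 11.7 CPM at day 0, and HEY1 0.987 CPM at day 1 against 3.52 CPM at day 0. The 2 that rose belong to the segmentation clock of presomitic mesoderm: HES7 averaged 7.96 CPM at day 1 against 0.228 CPM at day 0 and DLL1 17 CPM at day 1 against 3.38 CPM at day 0.

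**Figure D3:**
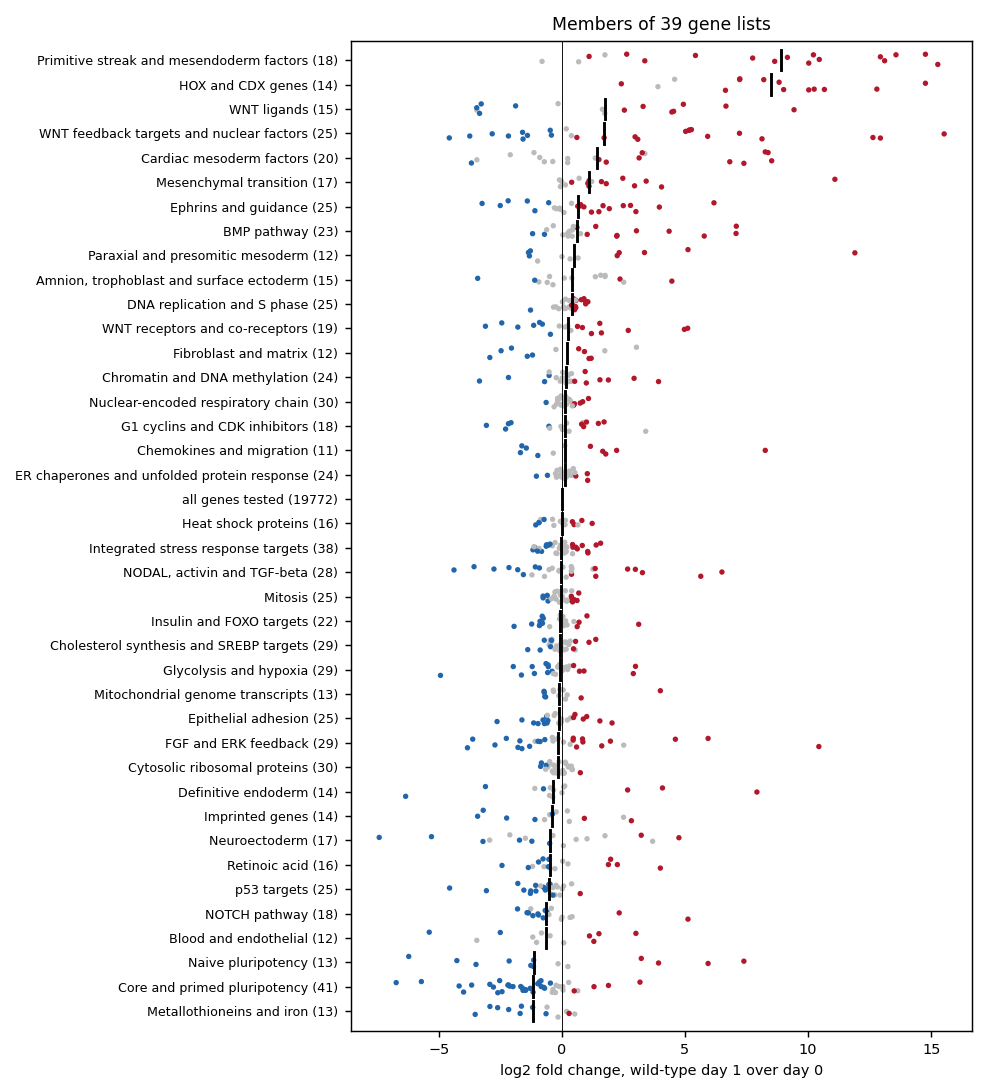
Log2 fold change (wild type, day 1 over day 0) of each tested member of the gene lists, one row per list, red for called higher, blue for called lower and grey for not called, with the list median as a bar. The row for all genes tested shows its median alone, members at 0 counts at 1 of the days are drawn at their fitted value, and the streak and HOX rows lie far to the right while pluripotency, p53 and metallothionein rows lie left.

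Of 41 pluripotency genes 28 were lower and 4 higher, with a median log2 fold change of -1.17 against 0.00 over all genes, and the fall was uneven. SOX2 had 13.9, 18.3 and 10.4 CPM at day 1, against 269, 251 and 251 CPM at day 0. The highest day 1 library was far below the lowest day 0 library. NANOG had 40.1, 46.9 and 45.9 CPM at day 1, against 168, 181 and 178 CPM at day 0 (log2 fold change -1.99 ± 0.19). POU5F1, the other core factor, had 1381, 1423 and 1376 CPM at day 1, against 2661, 2216 and 2118 CPM at day 0 and had a log2 fold change of -0.74 ± 0.23 (edgeR adjusted p = 0.0106), the smallest fold of the core factors. Without day 0 replicate 1 its adjusted p was 0.0513.

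Other regulators fell too. UTF1 averaged 0.0741 CPM at day 1 against 9.03 CPM at day 0, the forkhead factor FOXD3 0.263 CPM at day 1 against 13.6 CPM at day 0 and its antisense RNA FOXD3-AS1 4.79 CPM at day 1 against 60.9 CPM at day 0. PRDM14, a repressor of differentiation, averaged 4.2 CPM at day 1 against 24.2 CPM at day 0. The stem cell lncRNA LNCPRESS1 averaged 2.16 CPM at day 1 against 34.5 CPM at day 0. PODXL, which carries surface antigens used to stain stem cells, had 189, 222 and 200.4 CPM at day 1, against 1304, 1449 and 1459 CPM at day 0. THY1, the surface marker CD90, averaged 149 CPM at day 1 against 1137 CPM at day 0. DNMT3B, the de novo methyltransferase of the epiblast, averaged 772 CPM at day 1 against 1258 CPM at day 0, and DPPA4 442 CPM at day 1 against 797 CPM at day 0. LIN28A and TDGF1 were not called, LIN28A standing at 1512 CPM at day 1 against 1466 CPM at day 0. Genes of the naive state fell in 7 and rose in 4 of 13 cases: ESRRB averaged 0.053 CPM at day 1 against 4.04 CPM at day 0, while FGF4, TBX3 and KLF5 rose, KLF5 to 25.8 CPM at day 1, against 2.76 CPM at day 0.

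The first mesoderm subtypes were already counted. Of 20 cardiac mesoderm genes 9 were higher and 1 lower, with a median of 1.43 (0.79 with bounds). The share called was 50%, against 44.6% of all genes tested. GATA4 had 79.4, 75.8 and 72.7 CPM at day 1, against 0.0658, 0.324 and 0.21 CPM at day 0. APLNR, the apelin receptor of migrating mesoderm, averaged 125 CPM at day 1 against 0.4 CPM at day 0. MESP1, which marks the first heart progenitors, had 12.5, 8.33 and 7.88 CPM at day 1, against 0, 0.0648 and 0 CPM at day 0. KDR, the VEGF receptor used to sort cardiac mesoderm, averaged 289.9 CPM at day 1 against 102 CPM at day 0, so it had a sizeable level before the switch. HAND1, NKX2-5, TBX5, TBX20 and ISL1 were not called, and HAND1 averaged 0.0518 CPM at day 1. Of 12 paraxial mesoderm genes 5 were higher and 3 lower (66.67% called, against 44.6% of all genes tested). MSGN1, the master factor of presomitic mesoderm, had 28.9, 25.1 and 22.6 CPM at day 1 and 0 counts at day 0. TBX6 averaged 39.2 CPM at day 1 against 3.84 CPM at day 0.

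Genes of other lineages were called about as often as all genes tested (44.6%) or less: 42.86% of endoderm, 47.06% of neuroectoderm, 26.67% of amnion and 50% of blood genes, so the counts do not set these lists apart. Of 14 endoderm genes 3 were higher (CER1, TRH and FOXA1) and 3 lower, CER1 at 28.7 CPM at day 1 against 4.5 CPM at day 0. SHISA2, a relative of a Xenopus inhibitor of WNT and FGF receptors, fell to 0.644 CPM, against 53.1 CPM at day 0. Neuroectoderm genes were lower in 6 and higher in 2 of 17 cases, POU3F1 at 0.612 CPM at day 1 against 24.8 CPM at day 0. PAX6 had 0 counts at day 1 and was not called lower, since it was hardly counted at day 0 either. Of 15 amnion and surface ectoderm genes 2 were higher and 2 lower, and of 12 blood and endothelial genes 4 were higher, among them LMO2 and TEK, and 2 lower. As a check of the labelled cell type, the summed level of 10 undifferentiated markers was 5230 to 5260 CPM at day 1 and 8860 to 9210 CPM at day 0, and that of 9 streak markers 3380 to 3510 CPM at day 1 and 51.5 to 56.8 CPM at day 0. The 5 endoderm markers summed to 39.2 to 44.8 CPM at day 1 and 4.77 to 6.32 CPM at day 0, and 6 cardiac mesoderm markers to 373 to 396 CPM at day 1 and 100 to 112 CPM at day 0. Of these, 2 endoderm and 4 cardiac markers were called higher. At day 1 CER1 and FOXA2 made up most of the endoderm sum, and KDR most of the cardiac sum on both days. The 5 neuroectoderm markers summed to 1.89 to 2.49 CPM at day 1 and 0.324 to 0.658 CPM at day 0, the 5 amnion markers to 3.83 to 5.11 CPM and 6.78 to 7.84 CPM, and the 4 blood markers to 0.0388 to 0.105 CPM and 0.593 to 1.30 CPM on the same days. The 5 fibroblast markers summed to 341 to 347 CPM at day 1 and 363 to 403 CPM at day 0, with DCN at 0 counts on both days and LUM and COL3A1 at 0 counts at day 0.

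Adhesion and shape genes changed in part. Of 17 genes of mesenchymal transition 11 were higher and none lower, with a median of 1.10. CDH2, N-cadherin, had 465, 440.2 and 457 CPM at day 1, against 52.5, 63.6 and 60.2 CPM at day 0. CDH11, a mesenchymal cadherin, averaged 77.9 CPM at day 1 against 7.26 CPM at day 0. The hyaluronan synthase gene HAS2 averaged 58.2 CPM at day 1 against 3.52 CPM at day 0, and the repressor ZEB2 14.6 CPM against 0 counts. SNAI2, TWIST1 and ZEB1 were not called. E-cadherin, which the transition is known to remove, was higher: CDH1 had 354, 375 and 351 CPM at day 1, against 177, 206 and 209 CPM at day 0. Of 25 epithelial genes 6 were higher, among them CDH1, EPCAM and DSP (520.3 CPM at day 1 against 127 CPM at day 0), and 9 lower, among them the tight junction genes CLDN3, CLDN4, CLDN6 and TJP3 (3.12 CPM at day 1 against 19.3 CPM at day 0). Matrix genes split as well, with 4 higher and 5 lower of 12. The share called was 60% of epithelial and 75% of matrix genes, against 44.6% of all genes tested. COL1A2 averaged 299 CPM at day 1 against 131 CPM at day 0, whereas its partner chain gene COL1A1 averaged 44.4 CPM at day 1 against 247 CPM at day 0. Fibronectin, FN1, averaged 381 CPM at day 1 against 178 CPM at day 0.

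Guidance and migration genes were raised more often than lowered, 13 against 6 of 25 for ephrins and guidance, median 0.64. In that list 76% were called, against 44.6% of all genes tested. FLRT3, a leucine-rich transmembrane adhesion protein, had 41.7, 38.9 and 32.2 CPM at day 1, against 0.329, 0.324 and 0.911 CPM at day 0. The ephrin receptor gene EPHA4 averaged 80.6 CPM at day 1 against 5.18 CPM at day 0. Of the secreted guidance cues, NTN1 averaged 36.4 CPM at day 1 against 6.48 CPM at day 0, and SLIT2 98 CPM at day 1 against 25.8 CPM at day 0. UNC5B, a netrin receptor, fell to 10.6 CPM, against 100.4 CPM at day 0. Of 11 chemokine and migration genes 5 were higher and 4 lower (81.82% called). CXCR4, often used to sort mesendoderm, was not called at 0.414 CPM at day 1 against 0.396 CPM at day 0. Both ligands of the apelin receptor were lower while the receptor gene rose. APLN averaged 2.97 CPM at day 1 against 9.17 CPM at day 0, and APELA 5.41 CPM at day 1 against 17.4 CPM at day 0.

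The p53 list was lower in 14 and higher in 1 of 25 cases (60% called, against 44.6% of all genes tested), with a median of -0.53. CDKN1A, which encodes the cell cycle inhibitor p21, had 22.7, 23.7 and 21.5 CPM at day 1, against 177, 201 and 192 CPM at day 0. GDF15, a secreted stress factor, averaged 2.69 CPM at day 1 against 63.5 CPM at day 0, and the apoptosis gene BBC3 10.7 CPM at day 1 against 36.9 CPM at day 0. BAX, of the same process, averaged 98.6 CPM at day 1 against 166 CPM at day 0. MDM2, PMAIP1 and CCNG1 were not called. Of 25 DNA replication genes 12 were higher and 1 lower (52% called, against 44.6% of all genes tested), with a small median of 0.39. RRM2, a ribonucleotide reductase subunit, averaged 234 CPM at day 1 against 113 CPM at day 0. UHRF1, which keeps DNA methylation through replication, averaged 104 CPM at day 1 against 53 CPM at day 0. The exception was the licensing factor CDT1, at 96.9 CPM at day 1 against 235 CPM at day 0. Mitotic genes did not move one way, with 6 higher, 4 lower and 15 not called (40% called, against 44.6% of all genes tested). MKI67 was among those not called, at 326 CPM at day 1 against 308 CPM at day 0. When only the 6 compared libraries were fitted, 10 mitotic genes were lower. Of the G1 genes, CCND1 was higher while CCND3, MYCN and MYC were lower, CCND3 at 9.6 CPM at day 1 against 40.3 CPM at day 0, and MYCN at 18.4 CPM at day 1 against 90.3 CPM at day 0.

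Stress and metabolic lists moved little as groups, with single genes that moved much. Targets of the integrated stress response were 9 higher, 9 lower and 20 not called (47.37% called, against 44.6% of all genes tested), median -0.02. The tRNA synthetase gene WARS averaged 446 CPM at day 1 against 150.3 CPM at day 0. The amino acid transporter gene SLC7A5 averaged 1722 CPM at day 1 against 828 CPM at day 0, and SLC7A11, of cystine import, 120.3 CPM at day 1 against 45.9 CPM at day 0. The targets DDIT4 (41.2% of exon bases shared with DDIT4-AS1), STC2 and SESN2 fell, and ATF4 itself was not called at 566 CPM at day 1 against 569 CPM at day 0. Of 24 chaperone and unfolded protein response genes 3 were higher, CANX, DNAJB11 and PDIA3, and 2 lower, EIF2AK3 among them. The share called was 20.83%, against 44.6% of all genes tested. HSPA5, the chaperone BiP, was not called at 540 CPM at day 1 against 438 CPM at day 0. The heat shock list had 4 higher and 4 lower of 16 (50% called, near the 44.6% of all genes tested), DNAJA1 at 221 CPM at day 1 against 94.3 CPM at day 0.

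Glycolysis and hypoxia genes were 5 higher and 10 lower of 29 (51.72% called, against 44.6% of all genes tested). PDK1, which diverts pyruvate from mitochondria, had 393, 387 and 372 CPM at day 1, against 47.8, 46.5 and 50.8 CPM at day 0, and BNIP3, a mitophagy receptor, averaged 207 CPM at day 1 against 27.8 CPM at day 0. ADM, a hypoxia and stress-induced peptide, fell to 1.47 CPM, against 45.1 CPM at day 0, and HK1 to 164 CPM, against 513 CPM at day 0. The hypoxia targets VEGFA, SLC2A1 and NDRG1 were not called. The insulin and FOXO list was 4 higher and 9 lower of 22 (59.09% called, against 44.6% of all genes tested). TXNIP, which limits glucose uptake, averaged 30.3 CPM at day 1 against 3.5 CPM at day 0. In cholesterol synthesis 4 of 29 were higher and 5 lower (31.03% called, against 44.6% of all genes tested). MSMO1, of the pathway's later steps, averaged 41.1 CPM at day 1 against 108 CPM at day 0. Nuclear respiratory genes were mostly not called (5 higher, 1 lower of 30), and so were ribosomal protein genes (1 higher, 3 lower of 30), whose reads are shared with pseudogenes. When only the 6 compared libraries were fitted, respiratory genes were 13 higher and 3 lower, ribosomal genes 7 and 16, chaperones 9 and 4, and cholesterol genes 7 and 12, and 8 glycolysis genes were higher.

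Metallothionein genes were lower throughout the family. Of 13 metallothionein and iron genes 8 were lower, 1 was higher and 4 were not called, with a median of -1.19, and all 6 metallothioneins tested were among the lower ones. MT1X, the most counted, averaged 20.6 CPM at day 1 against 66.8 CPM at day 0. MT2A averaged 2.81 CPM at day 1 against 21.2 CPM at day 0, and MT1G 3.33 CPM at day 1 against 20.3 CPM at day 0. These copies are similar in sequence, so the split among them is uncertain. TFRC, the transferrin receptor gene, fell to 85 CPM, against 194 CPM at day 0. Mitochondrial genome transcripts were 2 higher and 4 lower of 13 (46.15% called, near the 44.6% of all genes tested). For MT-ND4, which had 5796, 5721 and 5446 CPM at day 1, against 5650, 10290 and 11930 CPM at day 0, the groups overlapped, with day 0 replicate 1 low. MT-ATP8, at 83.4 CPM at day 1 against 5.23 CPM at day 0, overlaps MT-ATP6 in sequence.

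Chromatin and imprinted genes were called about as often as all genes tested (45.83% and 50%, against 44.6%), so only single members are described. Chromatin genes were 7 higher and 4 lower of 24 (11 higher when only the 6 compared libraries were fitted). SMARCA2, a SWI/SNF ATPase, averaged 55.2 CPM at day 1 against 7.25 CPM at day 0, and the H3K27 demethylase gene KDM6B 28.5 CPM at day 1 against 7.72 CPM at day 0. The Polycomb genes JARID2 and CBX7 fell to 90.2 and 2.62 CPM at day 1, against 406 and 26.7 CPM at day 0, while EZH2 averaged 71.2 CPM at day 1 against 35.9 CPM at day 0. Of 14 imprinted genes 2 were higher and 5 lower. KCNQ1OT1, the antisense RNA of an imprinted domain, had 4.35, 4.14 and 5.33 CPM at day 1, against 53.2, 47.1 and 48.2 CPM at day 0, and SNRPN, which shares 33.6% of its exon bases with SNURF and other genes, averaged 467 CPM at day 1 against 999 CPM at day 0. Among lncRNAs, LINC01124 (chr2:170712451-170714567), which lies just upstream of SP5 on the other strand, had 67.2, 67.1 and 65.8 CPM at day 1 and 0 counts at day 0. AC004080.1 reached 17.2 CPM against 0 counts, and AC009133.2 shares 92.5% of its exon bases with MAZ, so its count is uncertain.

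In absolute terms a different set of genes moved the most reads. By the difference in CPM the genes most raised included TUBB2B (2728 CPM at day 1 against 1045 CPM at day 0), TUBB2A (1655 CPM at day 1 against 432 CPM at day 0) and HNRNPA1 (2920 CPM at day 1 against 1661 CPM at day 0), whose reads are shared with close copies. GJA1, connexin 43, averaged 1496 CPM at day 1 against 318 CPM at day 0. ODC1, the entry enzyme of polyamine synthesis, had 1248, 992 and 999 CPM at day 1, against 96.7, 80.7 and 80.2 CPM at day 0. CNTNAP2, a neurexin family protein, averaged 1076 CPM at day 1 against 76.7 CPM at day 0. The genes most lowered included ACTB (3718 CPM at day 1 against 6386 CPM at day 0) and several mitochondrial transcripts, along with PODXL and TKT, an enzyme of the pentose phosphate pathway (802 CPM at day 1 against 1838 CPM at day 0). For MT-ND4, MT-ATP6, MT-ND2 and MT-ND1, day 0 replicate 1 lay near the day 1 libraries. Their fall rests on day 0 replicates 2 and 3. By fold, the lowest included the homeobox gene HMX2 (0.053 CPM at day 1 against 10 CPM at day 0), the growth factor gene PDGFB (1.37 CPM at day 1 against 73.1 CPM at day 0), the vitamin D receptor gene VDR (0.0963 CPM at day 1 against 5.6 CPM at day 0) and the myosin gene MYH2 (0.446 CPM at day 1 against 23.5 CPM at day 0). C19orf85, CNTN2, SORBS2, SCUBE1, KLHDC8A and DGKK averaged at most 0.249 CPM at day 1 and at least 7.19 CPM at day 0.

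Many of the raised genes were highest at day 1. The medium changed over the later days, with CHIR99021 on days 0 to 1, 3 µM IWP2, an inhibitor of WNT secretion, on days 2 to 5, heparin on days 1 to 7 and insulin from day 7, so day and treatment cannot be told apart. Of 316 genes that were called at least 4-fold higher and had at least 5 CPM at day 1, 167 (52.8%) had their highest mean of the 5 sampled days 1, 2, 3, 5 and 10 at day 1. Another 64 had their highest mean on day 2, and days 3, 5 and 10 held the highest mean of 15, 27 and 43 genes. In all, 91 of them had a day 2 mean under 0.25 of the day 1 mean, and 148 a day 10 mean under it. TBXT, with 1041 CPM on day 1, averaged 226 CPM on day 2, 1.83 CPM on day 3 and 0 on day 10. MIXL1 followed the same course, with 1475, 549, 78.4 and 14 CPM on these days. GATA4 had 76 CPM on day 1 and 163, 242 and 514 CPM on days 2, 3 and 10. MESP1 peaked a day later, with 9.56 CPM on day 1, 162 CPM on day 2 and 61.9 CPM on day 3. NODAL fell to 13.4 CPM on day 2 and stood at 186 CPM on day 5. Among the lower genes, SFRP1 averaged 28.2 CPM at day 1 and 537 at day 10, against 377 at day 0, while NANOG averaged 6.87 CPM at day 2 and 1.77 at day 3. The lower genes as a set were split: of 346 that were at least 4-fold lower with at least 5 CPM at day 0, 122 stayed under 0.25 of day 0 on days 2, 3, 5 and 10, and 68 were back at or above their day 0 mean by day 10. These day profiles are descriptions without a test, and the day 1 values are the same as those that chose the genes.

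**Figure D4:**
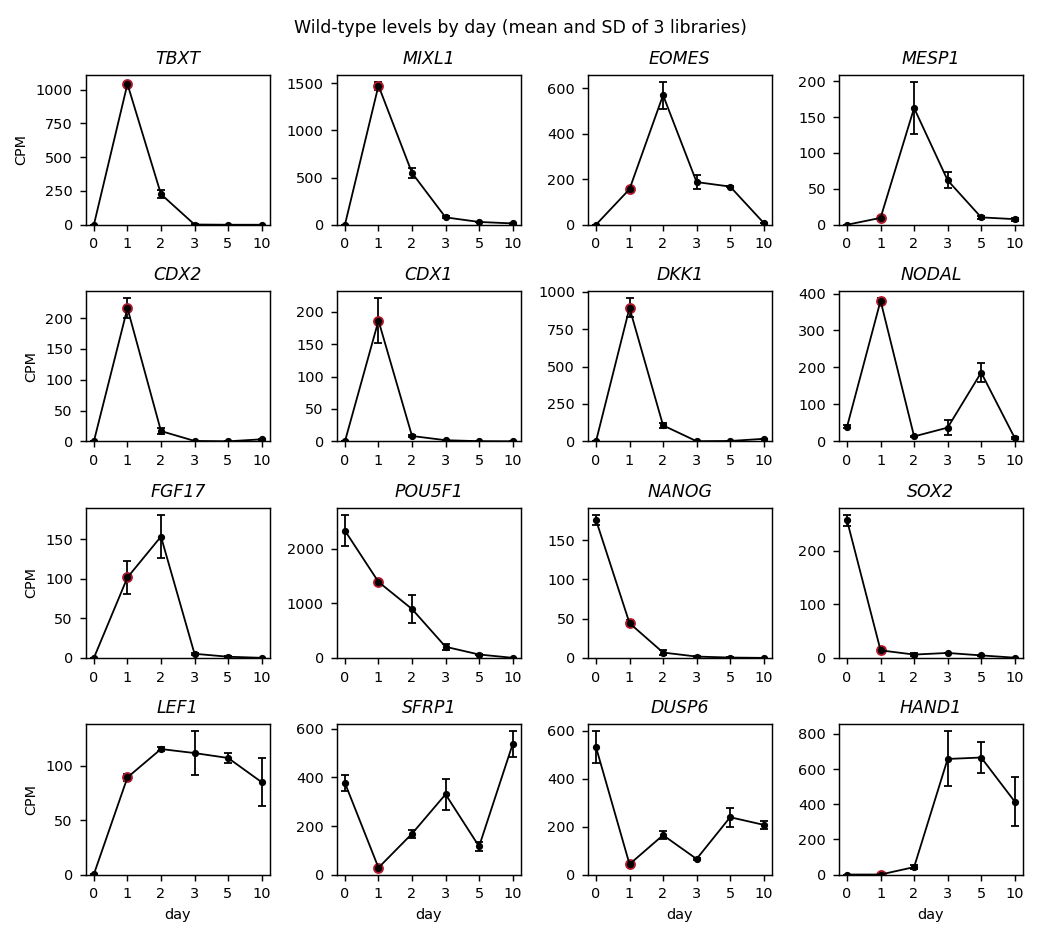
Mean CPM (linear axis, its own range for each gene) of 16 selected genes in wild-type libraries at days 0, 1, 2, 3, 5 and 10, evenly spaced on the axis, with day 1 marked in red and error bars for the SD of 3 libraries. TBXT, MIXL1, CDX2, CDX1 and DKK1 are highest at day 1, EOMES, MESP1 and FGF17 at day 2 and HAND1 later, and the fall of SFRP1 at day 1 is not kept.

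The same switch was set beside that in PERK KO cells, which share no library with the wild-type groups. EIF2AK3 transcripts were present in both genotypes, at 10.7 CPM at day 1 against 21.9 CPM at day 0 in wild type and 14.6 CPM at day 1 against 16.9 CPM at day 0 in PERK KO, so the gene-level count does not check the edit. In PERK KO, day 1 against day 0 called 3564 genes higher (18.0%) and 4953 lower (25.1%), 43.1% in all. Scaled by library totals alone the same split was 4323 and 3994. Across 12812 genes with at least 5 CPM in 1 of the 4 groups the log2 fold changes of the genotypes had a Pearson r of 0.705, as a description. Of the 691 among them that were called and at least 4-fold changed in wild type, 638 had the same sign in PERK KO. The interaction, wild type minus PERK KO of the log2 fold changes, was called for 4559 genes (23.1%), 2543 positive (12.9%) and 2016 negative (10.2%), but 1840 positive and 2720 negative with library totals alone. PERK KO day 0 replicate 2 stood apart, with a mean effective length of 1736 nt, whereas replicates 1 and 3 had 2540 and 2495 nt, and without it and the wild-type day 2 library that stood apart the interaction counts were 2712 and 2782.

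**Figure D5:**
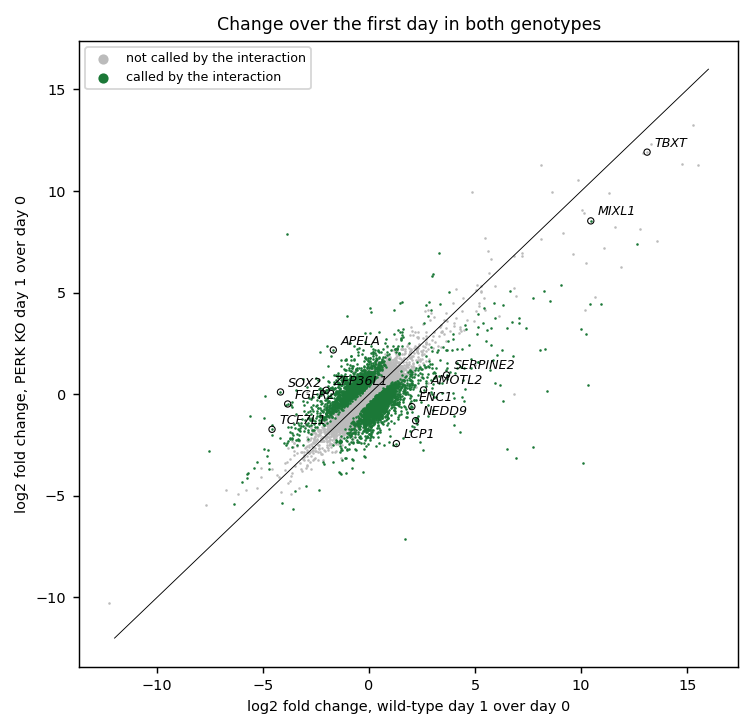
Log2 fold change, day 1 over day 0, in wild type against that in PERK KO, one point per gene of at least 5 CPM in 1 of the 4 groups, with genes of a called interaction in green, the rest in grey and a line where both changes are equal. SOX2 lies at -4.18 in wild type and 0.11 in PERK KO, and the streak genes TBXT and MIXL1 are high in both.

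In wild type 20.9% of all genes tested were called higher and 23.7% lower, and in PERK KO 18.0% and 25.1%. The interaction was positive for 12.9% and negative for 10.2% of all genes tested. List counts below are to be read beside these shares. Streak genes rose in both genotypes, 15 of 18 in each. The interaction was called positive for 5 of the 18 and negative for 2, MIXL1 among the positive ones (1.92 ± 0.34, edgeR adjusted p = 0.000131). TBXT reached 1041 CPM in wild type and 288 CPM in PERK KO at day 1, and its interaction was not called (1.19 ± 1.28, edgeR adjusted p = 0.555). For genes with almost no reads at day 0 the interaction had a large SE, so a missing call does not show an equal change. EVX1, with 0 counts at day 0 in both genotypes, reached 264 CPM in wild type and 65.4 CPM in PERK KO. With no day 0 reads in either genotype its interaction could not be called at any day 1 level. The computed SE of 4741.5 is not a measured spread. Of 20 cardiac mesoderm genes 9 were higher in wild type and 4 in PERK KO, the latter near the share of all genes, with 8 positive interactions. Pluripotency genes were lower in 28 of 41 cases in wild type and 25 in PERK KO, with 16 negative interactions and 4 positive ones. SOX2, lower at day 1 in wild type, averaged 223 CPM at day 1 against 207 CPM at day 0 in PERK KO, an interaction of -4.29 ± 0.30 (adjusted p = 3.44e-11). Stress lists held more lower genes in PERK KO: of 38 integrated stress response targets 9 were higher and 9 lower in wild type, against 3 higher and 23 lower in PERK KO, with 13 positive interactions and none negative. CHAC1, a glutathione-degrading enzyme gene induced by ATF4, averaged 39.8 CPM at day 1 against 70.6 CPM at day 0 in wild type and 13.7 CPM at day 1 against 126 CPM at day 0 in PERK KO. The chaperone list had 3 higher and 2 lower of 24 in wild type, and 1 higher and 11 lower in PERK KO, with 10 positive interactions and 2 negative. HSPA5, not called in wild type, averaged 374 CPM at day 1 against 851 CPM at day 0 in PERK KO. More lower genes in PERK KO were not particular to the stress lists. Nuclear respiratory genes were 5 higher and 1 lower of 30 in wild type, and 0 higher and 12 lower in PERK KO. Mitotic genes were 6 higher and 4 lower of 25 in wild type, and 4 higher and 11 lower in PERK KO. Among lists that went the other way, NOTCH genes were lower in 9 cases in wild type and 6 in PERK KO. List counts in PERK KO were not taken under library totals alone, where its split over all genes turned round.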

How the data were processed

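Poly(A) RNA of H1 cells was read as 150 bp paired ends. Per the submitters' processing notes, CASAVA, FastQC, STAR, RSEM and the builds GRCh38 and hg38 were used, with versions not given in the sources used here. Per the file headers, the deposited sample files hold RSEM expected counts, TPM and FPKM per gene, and the series matrix repeats the expected counts. TPM as deposited by the authors was used only for levels between genes.

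Expected counts of 58721 genes (all found in GENCODE release 29) were rounded to whole numbers. After filterByExpr 19772 genes stayed. Counts were TMM scaled and fitted as 12 groups with 24 residual degrees of freedom by the quasi-likelihood F test of edgeR 4.0.16 (limma 3.58.1, R 4.3.3), with a common dispersion of 0.0349. Called means a Benjamini-Hochberg adjusted p under 0.05 within a contrast, and SE is the size of the log2 fold change over the root of F. CPM uses TMM-scaled library sizes. The contrasts were wild type day 1 minus day 0, the same in PERK KO, and their difference (interaction). Libraries were unpaired. DESeq2 1.42.0 was an alternative tool. Tables and figures were made with matplotlib 3.10.9, numpy 2.4.6, pandas 2.3.3 and Python 3.11.15. The scripts were tested on simulated data.

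The 39 gene lists (842 entries), the members and the alternatives were chosen with earlier results of these data known. Besides list members, the text could name the 15 largest called changes per direction (at least 5 CPM in 1 group, no overlap of libraries), 5 lncRNAs and 10 largest CPM differences per direction, 10 interaction genes per direction, the targeted gene, and genes with 0 counts at 1 day. Folds against a group without counts use 3 counts as its floor, and ratios to a group of 1 to 3 counts carry a 95% interval. Both cover counting error only. Promoter windows are RefSeq's on GRCh38.p14. The series text names days 0, 2 and 6 for collection, and the sample labels were followed. Some members counted in the lists are not reported here by name.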

Additional observations from a re-analysis of the deposited data

Results flagged for a closer look

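The change over the first day differed between the genotypes by the interaction test for the 20 genes below, the 10 with the lowest p in each direction. Values are wild type minus PERK KO of the log2 fold changes, day 1 over day 0, with the value without the 2 libraries that stood apart (replicate 2 of PERK KO day 0, replicate 3 of wild-type day 2) in parentheses. All were called by edgeR, and their causes were not tested.

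Among genes with a positive interaction, SERPINE2, a serine protease inhibitor, had an interaction of 2.70 (2.61), with 621 CPM at day 1 against 49.4 CPM at day 0 in wild type and 137 CPM at day 1 against 70.9 CPM at day 0 in PERK KO. AMOTL2, a junction protein of the Hippo pathway, had 2.35 (2.53), with 366 CPM at day 1 against 61.8 CPM at day 0 in wild type and 129 CPM at day 1 against 111 CPM at day 0 in PERK KO. NEDD9, a focal adhesion scaffold, had 3.49 (3.63), LCP1, an actin bundler, 3.71 (3.70), and COL13A1, a transmembrane collagen, 3.36 (3.34). ENC1 had 2.63 (2.76) and LZTS1 3.19 (3.28). All of these rose in wild type, but in PERK KO NEDD9, LCP1, COL13A1 and ENC1 were called lower. Their log2 fold changes in PERK KO were -1.30, -2.43, -1.21 and -0.61. AMOTL2 and LZTS1 were not called in PERK KO. LCP1 averaged 7.62 CPM in wild type and 18.7 CPM in PERK KO at day 0, and 18.6 and 3.48 CPM at day 1. Genes whose reads are uncertain were also among those with a positive interaction: MT-ATP8 had 5.53 (5.59) and AP000892.3, which shares 74.0% of its exon bases with PCSK7, 3.76 (3.69). AP000892.3 was called lower in PERK KO, with a log2 fold change of -2.14. MT-ATP8 averaged 5.23 CPM in wild type and 184.9 CPM in PERK KO at day 0, and 83.4 and 63.9 CPM at day 1. AP003396.5 shares all of its exon bases with THY1 and had 7.24 CPM at day 1 and 0 counts at day 0 in wild type, and 2.68 CPM at day 1 against 28.5 CPM at day 0 in PERK KO (edgeR adjusted p of the interaction = 3.44e-11).

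Among genes with a negative interaction, SOX2 had -4.29 (-4.41) and FGFR2 -3.36 (-3.22), with FGFR2 at 5.4 CPM at day 1 against 77.5 CPM at day 0 in wild type and 46 CPM at day 1 against 64 CPM at day 0 in PERK KO. TCF7L1 had -2.85 (-2.81), with 13.3 CPM at day 1 against 317 CPM at day 0 in wild type and 54.8 CPM at day 1 against 181 CPM at day 0 in PERK KO. APELA had -3.87 (-3.82) and moved in opposite directions, with 5.41 CPM at day 1 against 17.4 CPM at day 0 in wild type and 70.9 CPM at day 1 against 15.6 CPM at day 0 in PERK KO. ZFP36L1, an RNA-binding decay factor, had -2.22 (-2.21), ACTN3 -2.55 (-2.46), PAPLN -3.22 (-3.03), PRRT2, which shares 46.2% of its exon bases with other genes, -2.81 (-2.75) and JAKMIP2-AS1 -6.86 (-7.14). TBC1D3L, of a family of near-identical copies, had -2.51 (-2.52). ZFP36L1 averaged 388 CPM in wild type and 98.4 CPM in PERK KO at day 0, and 95.45 and 113 CPM at day 1. PAPLN was not called in wild type, at 8.1 CPM at day 1 against 9.23 CPM at day 0. In PERK KO it rose, to 67.9 CPM at day 1 against 8.23 CPM at day 0. TBC1D3L and JAKMIP2-AS1 fell in wild type and rose in PERK KO, by 1.03 and 2.49 on the log2 scale. EIF2AK3 itself had -0.82 (adjusted p = 0.0344), which was not called without the 2 libraries (-0.64, adjusted p = 0.0522).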

How the results depend on the processing

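With at least 5 CPM required in 3 libraries, 3023 genes were called at least 2-fold in wild type and 2869 in PERK KO, against 4743 and 4311. This filter left 14350 genes tested, against 19772 in the main fit, and the part of each in the drop was not tested. With only the 6 compared libraries fitted, wild type gave 5623 higher and 5578 lower, and PERK KO gave 1964 higher, 2304 lower and 2862 at least 2-fold (the cause was not tested). Without the 2 libraries that stood apart, neither of them a compared wild-type library, wild type gave 5175 higher and 5558 lower. Leaving out each library in turn gave 3433 to 3739 higher, 3991 to 4263 lower and 4413 to 4688 at least 2-fold in wild type. In PERK KO the ranges were 2951 to 3657, 3866 to 5219 and 3308 to 5021, and for the interaction 1994 to 2777 positive, 1591 to 2506 negative and 2293 to 3048 at least 2-fold. A replicate block in all groups gave 4214 higher and 4722 lower in wild type. Same-numbered wild-type libraries of the 2 days had correlated deviations of 0.184, 0.0411 and 0.0693, and other-numbered ones ran from -0.156 to 0.114. In PERK KO the same-numbered values were 0.265, 0.25 and 0.0709, and the others ran from -0.303 to 0.162. The numbers were not taken to pair samples in the main fit. With the replicate block the interaction was positive for 2534 genes and negative for 2072. RLE scaling, DESeq2 (4206 higher, 4892 lower in wild type), no filter, library totals, 2 length offsets (1 added after seeing the data) and the series matrix left wild-type counts within 1.5 times. For 259 tested genes named in the text, 4581 of 4624 alternative values stayed on the same side of the threshold with the same sign, 37 gained a call, 6 lost one and none turned round. Of 1404 list counts under the alternatives 98 moved by over 1.5 times, mostly small counts. Depth limits genes of few reads, whose ratios carry the wide intervals given in the text.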
